A study of Mus musculus with 6 samples.

Results

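Complement and coagulation factors are plasma proteins that the liver makes and secretes, and the genes for 33 of them were followed here in mice with and without mutated Dhx32, which encodes a DEAH-box helicase. The 33 genes were listed by name, and a gene was measured where its current or older symbol stood alone for at least 2 probe sets with a mean log2 signal of 3 or more in a group. On that rule 32 of the 33 were measured, of 15045 genes in all, with 496 of their 497 probe sets kept. F9, for a clotting factor of the vitamin K dependent group, was not analysed here. Total RNA came from snap-frozen livers of male mice aged 6 to 8 weeks, 3 homozygous Dhx32-/- mutants and 3 wild type controls by genotyping. Each sample was hybridised to 1 Affymetrix exon array, which carries probe sets for single exons. The labels name no treatment and no inbred strain, and what the mutation changes in Dhx32 is not stated there. The study asked which transcripts and exons differ in liver when Dhx32 is mutated. All levels below are log2 signals, a difference is mutant minus control, and a gene's level is the mean over its kept probe sets. Deviations are from the control mean, of which each control is a part, so they tend to be smaller in controls than in mutants.

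Complement is a cascade of proteases and binding proteins that marks microbes and lyses membranes. Lectins such as mannose-binding lectin recognise sugars on a microbe, associated proteases cleave C4 and C2, the resulting convertase cleaves C3, and the terminal components assemble into a pore. Coagulation is a second protease cascade, which ends in thrombin and fibrin and is held in check by inhibitors and by the fibrinolytic enzyme plasmin. Hepatocytes secrete most of these proteins, and several are known to be raised in blood during the acute phase of inflammation.

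No member passed the test, and most differences were small. In limma the members' adjusted p-values ran from 0.943 to 0.983 over all genes (0 of 32 past a threshold of 0.05), where 0.00665% of all genes passed. At an unadjusted p under 0.05 there were 2 members, both higher in mutants, Mbl1 and C4b, against 4.21% of all genes. In all 15 members had a higher and 17 a lower mean in mutants (46.9% higher), where 47.5% of all genes were higher. That balance turned with the processing, with 19 members higher after median centring, 21 with gene medians in place of means, and 14 to 21 with an array left out. The median difference was -0.03 over the members and -0.01 over all genes. The 95% interval of the difference lay within 1 log2 unit on both sides of 0 in 30 of the 32, the exceptions being Mbl2 and F13b. Standard errors ran from 0.14 to 0.35, so shifts of the size seen in most members could not be told from 0 with 3 arrays per group. The smallest p of an exact two-sided permutation test over 3 against 3 arrays is 0.1. In whole liver, fewer cells of a type and less RNA per cell cannot be told apart.

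**Figure D1:**
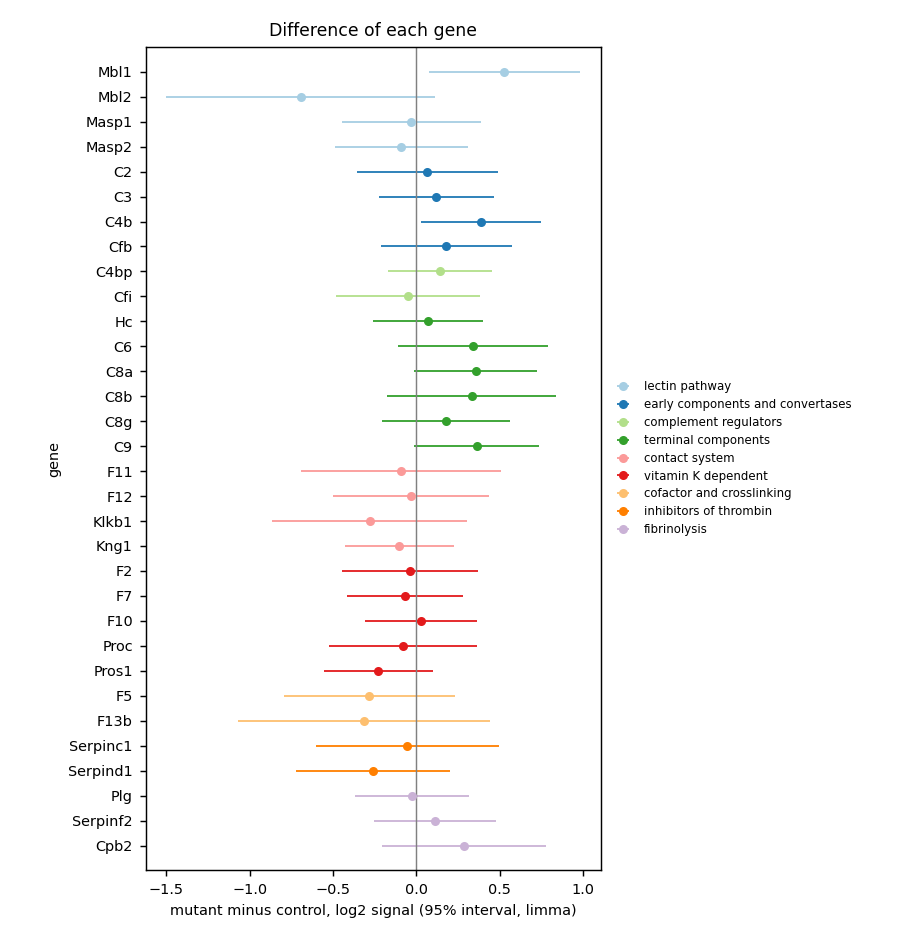
Difference in log2 signal, mutant minus control, for each of the 32 measured genes (rows, grouped and coloured by role), with the 95% interval from limma as a bar. The intervals of Mbl1 and C4b lie above 0, all 6 terminal components have points above 0, and Mbl2 has the lowest point at -0.69; no gene passed after adjustment over all genes.

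In 6 of the 32 members (18.8%) the 3 mutants and the 3 controls did not overlap, which was seen in 9.47% of all genes. The mutants lay above all controls in Mbl1, C4b, C4bp, C8a and C9, where 5.15% of all genes did so, and below them in Pros1, where 4.32% of all genes did so. With quantile normalization or median centring of the arrays C9 and Pros1 overlapped, and the count was 4. With an array left out there is less room for overlap, and the counts were 12, 7 and 8 of 32 without control replicates 1, 2 and 3, against 24.5%, 15.5% and 14.9% of all genes. They were 10, 11 and 8 without mutant replicates 1, 2 and 3, against 17.3%, 21.4% and 27.4% of all genes. The members were picked by name and share their arrays, so these counts describe the list and are no test of it.

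The arrays differed from each other beyond their groups. Their median log2 signals were 6.73 to 6.95 in mutants and 6.81 to 6.92 in controls. Mutant replicate 1 stood apart, with correlations of 0.935 to 0.940 with the other arrays, where the others reached 0.973. Dhx32 itself read 6.35, 6.60 and 7.04 in mutants, against 8.28, 8.85 and 8.62 in controls, lower in every mutant than in every control. The defining hepatocyte markers were well detected, with a mean level over 4 of 6 listed genes of 13.53 to 13.74 in mutants and 13.53 to 13.68 in controls. Over 10 measured acute phase genes, all with a higher mean in mutants, mutant replicates 1, 2 and 3 deviated by 2.39, 1.1 and 0.62 from the average of the controls, which themselves ranged from -0.15 to 0.10. A few genes carried these averages, among them Lcn2 (6.26, 3.88 and 2.83) and Saa3 (5.71, 3.20 and 0.97), while Crp (0.76, -0.20 and -0.15) and Cp (0.23, 0.07 and 0.06) lay near the controls in mutant replicates 2 and 3; these were named after their values were seen. Markers of Kupffer cells and macrophages averaged 7.42 to 8.06 in mutants and 7.33 to 7.84 in controls over 6 of 6 genes, 3 of them higher in mutants. Neutrophil markers averaged 4.64 to 5.43 in mutants and 4.53 to 4.86 in controls over 6 of 7 genes, 4 of them higher. Both lists were highest in mutant replicate 1. Stellate cell markers deviated from the control mean by -0.75, -0.37 and 0.09 in mutants, against -0.19, 0.21 and -0.02 in controls, over 5 of 5 genes, 1 of them higher. Sinusoidal endothelial markers deviated by -0.30, -0.73 and 0.21 in mutants, against -0.36, 0.06 and 0.30 in controls, over 5 of 5 genes, 1 of them higher. The part of these cell types in the results below was not tested, and log2 signals have no zero at which a marker could be called absent.

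The mannose-binding lectins of the mouse, which recognise microbial sugars and start the lectin pathway, differed in opposite directions. Their start regions are shown because these paralogous genes gave the highest and the lowest difference of the list. The windows run from 250 bases before to 50 bases after the annotated start, in RefSeq's build GRCm38.p6, both on the plus strand, at chr14:41151206-41151505 for Mbl1 and chr19:30232678-30232977 for Mbl2. Capitals mark the longest run the windows share, 13 bases that begin 23 bases before the start in Mbl1 and 57 bases before it in Mbl2.
Mbl1: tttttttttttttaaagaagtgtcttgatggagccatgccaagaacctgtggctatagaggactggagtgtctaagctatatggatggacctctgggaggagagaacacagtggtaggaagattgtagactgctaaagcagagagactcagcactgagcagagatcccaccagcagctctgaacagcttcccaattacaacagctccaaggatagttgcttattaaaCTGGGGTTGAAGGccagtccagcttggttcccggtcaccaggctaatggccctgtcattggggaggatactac
Mbl2: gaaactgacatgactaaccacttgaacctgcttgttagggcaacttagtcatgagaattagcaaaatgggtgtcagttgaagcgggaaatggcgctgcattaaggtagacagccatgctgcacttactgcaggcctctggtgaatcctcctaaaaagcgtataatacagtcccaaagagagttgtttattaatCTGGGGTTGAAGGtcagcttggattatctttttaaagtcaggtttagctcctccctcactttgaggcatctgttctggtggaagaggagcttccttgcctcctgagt

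Mbl1 read 10.64, 10.12 and 10.77 in mutants, against 10.10, 9.93 and 9.90 in controls. All mutants lay above all controls, but mutant replicate 2 only just above control replicate 1. The difference was 0.53 (SE 0.20, 95% interval 0.08 to 0.98, 1.44-fold), with an adjusted p = 0.943 in limma, and all 6 probe sets of the gene were higher in mutants. Mbl2 read 11.41, 9.95 and 10.10 in mutants, against 11.08, 11.19 and 11.27 in controls. Mutant replicates 2 and 3 were thus the lowest of the 6 arrays by almost 1 log2 unit, while mutant replicate 1 was the highest. The mean difference of Mbl2 was -0.69 (SE 0.35, 95% interval -1.50 to 0.12, adjusted p = 0.943 in limma), and it depended on which mutants were kept. It was -1.15 without mutant replicate 1 (adjusted p = 0.258 in limma), -0.42 without mutant replicate 2 and -0.50 without mutant replicate 3 (adjusted p = 0.854 and 0.669 in limma), and -0.45 with gene medians. The proteases that the lectins carry showed no such spread. Masp1, which activates Masp2, differed by -0.03 (SE 0.18) and Masp2, which cleaves C4 and C2, by -0.09 (SE 0.17), with overlapping groups in both.

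The low signal of Mbl2 in mutant replicates 2 and 3 was unequal between its probe sets, though the exon usage test given below did not pass on all arrays. In probe set 4520356 mutants read 10.44, 6.61 and 6.64, against 9.62, 10.12 and 10.52 in controls. Probe set 4363810 read 11.30, 9.21 and 7.95 in mutants, against 11.85, 11.03 and 11.20 in controls. Both probe sets were far below the controls on the same 2 arrays, while mutant replicate 1 lay within the range of the controls. By contrast, probe set 5190734 read 11.17, 10.02 and 11.40 in mutants, against 10.54, 10.89 and 10.77 in controls, and probe set 5311771 read 11.53, 11.02 and 11.60 in mutants, against 11.35, 11.50 and 11.62 in controls. On these last probe sets mutant replicate 3 stood level with or above the controls. In 5 of the 8 probe sets of Mbl2 mutant replicates 2 and 3 were both below the other 4 arrays. Where the 8 probe sets lie within the gene was not analysed here. Probe set 4520356 was named by rule, and the others given here after their values were seen.

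**Figure D2:**
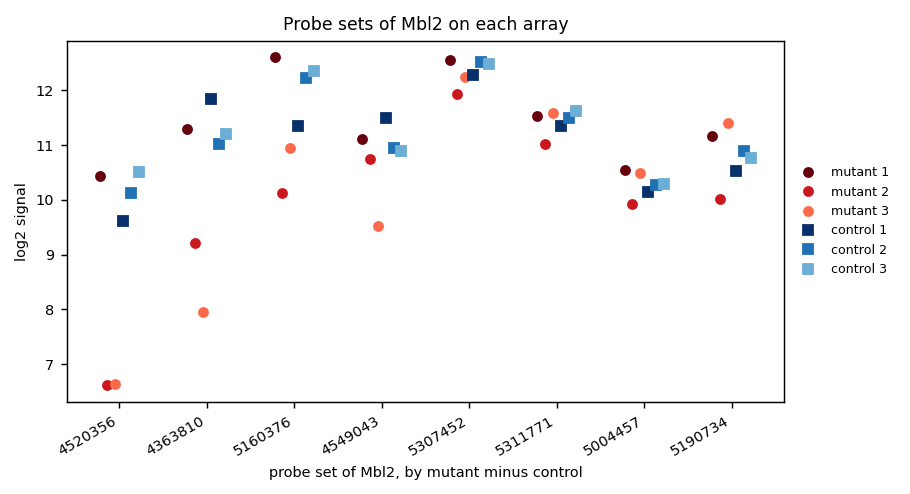
Log2 signal of the 8 probe sets of Mbl2 (x axis, ordered by the difference) on each array, mutants as red circles and controls as blue squares. Mutants 2 and 3 fall to 6.61 and 6.64 in probe set 4520356, where mutant 1 reads 10.44. Mutant 2 is the lowest array in 6 of the 8 probe sets and mutant 3 in the other 2.

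Exon usage compares how a probe set differs between groups with how the other probe sets of the same gene do, here by the F-test of diffSplice in limma. Over 14310 genes 0.21% passed, and 0 of the 32 members did, nor did any reach an unadjusted p under 0.05 (4% of all genes). Mbl2 came nearest of the members (adjusted p = 1 in limma), with 4520356 as its most deviating probe set. Without mutant replicate 1 Mbl2 passed (adjusted p = 0.000622), where 0.314% of all genes did. Next came Serpind1, whose probe set 5204563 read 4.18, 4.66 and 4.93 in mutants, against 5.82, 5.70 and 5.0 in controls, and F7, whose probe set 5590467 read 7.72, 7.96 and 8.42 in mutants, against 8.62, 8.86 and 8.37 in controls. In Serpind1 the groups did not overlap and in F7 they did, and neither gene came near the threshold (adjusted p = 1 for both in limma). Without mutant replicate 2 another member, F10, passed (adjusted p = 0.000104 in limma, 0.405% of all genes), through probe set 5409581. With any other array left out no member passed, where 0.251%, 0.0908% and 0.119% of all genes did without control replicates 1, 2 and 3, and 0.3% without mutant replicate 3. That probe set was dim and read 1.18, 5.02 and 1.72 in mutants, against 3.28, 3.55 and 4.07 in controls, so the call rested on values near or under the signal minimum of 3. F10 and 5409581 were named after their values were seen.

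Over the 496 single probe sets of the members 0 passed in limma, as did 0% of all 191663. At an unadjusted p under 0.05 there were 8 (1.61%), 3 of them higher, against 4.07% of all probe sets. Groups that did not overlap were found in 33 (6.65%), against 8.45% of all probe sets. In Mbl1, C3, C4b, C6, C8a, C8b, C8g, C9 and Cpb2 all probe sets were higher in mutants. In Klkb1, F5, F13b and Serpind1 all were lower. How often this happens over all genes was not counted, and it is easier to meet with few probe sets. Probe sets of a gene share the same 6 mice and are not separate comparisons.

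**Figure D3:**
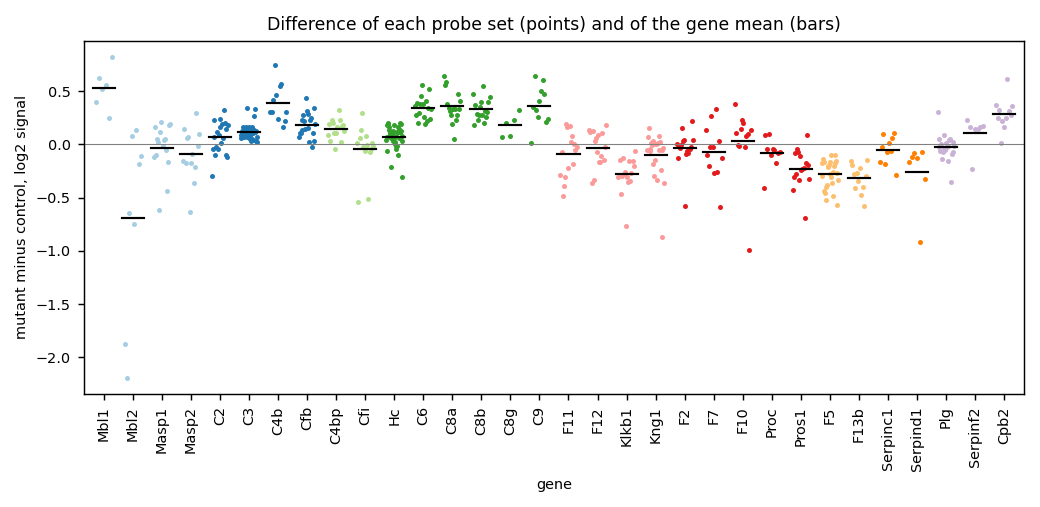
Mutant minus control difference in log2 signal of each probe set (points, coloured by role) and of the gene mean (black bars) for the 32 genes on the x axis. C3, with 39 probe sets, spans only 0.03 to 0.34, whereas Mbl2 spans -2.19 to 0.14.

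Among the early components, C4b, the source of the C4 protein that both the classical and the lectin pathway cleave, had the clearest difference. It read 12.62, 12.30 and 12.37 in mutants, against 11.96, 12.18 and 11.998 in controls. Every mutant lay above every control, with mutant replicate 1 the highest. The difference was 0.39 (SE 0.16, 95% interval 0.03 to 0.75, 1.31-fold), with an adjusted p = 0.943 in limma, and it was 0.29 without mutant replicate 1. All 11 probe sets were higher in mutants. In 3 of them the groups did not overlap, against 8.45% of all probe sets, and they share the mice of the gene mean. C4b has a close copy beside it, C4a, and hybridisation to both may be mixed in these values. Factor B, the protease of the alternative pathway encoded by Cfb, read 13.09, 12.61 and 12.72 in mutants, against 12.63, 12.73 and 12.52 in controls, so only mutant replicate 1 lay above the controls. Its difference of 0.18 (SE 0.17) became 0.04 without that array. C3, on which all pathways converge, differed by 0.12 (SE 0.15) and C2, the protease partner of C4, by 0.06 (SE 0.18). In C3 the highest array was again mutant replicate 1, at 13.81 against 13.43 to 13.58 in controls.

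Of the complement regulators, C4bp, which encodes a binding protein that dissolves the C4-containing convertase, was slightly higher. It read 12.18, 12.18 and 12.31 in mutants, against 12.07, 12.06 and 12.12 in controls. The groups did not overlap, yet the difference was only 0.14 (SE 0.14). Cfi, whose protease cleaves C3b and C4b, read 11.05, 11.63 and 11.56 in mutants, against 11.47, 11.55 and 11.36 in controls. Mutant replicate 1 was low and the other mutants were above all controls, so the difference was -0.05 (SE 0.19) on all arrays and 0.13 without that mutant.

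The terminal components, which assemble into the membrane attack pore, were all higher on average in mutants, though none passed. All 6 measured members had a higher mean, with a median difference of 0.34 and a range of 0.07 to 0.36. They kept that direction in each of 14 alternative settings, which is no test of it. All settings reuse the same 6 arrays, and the other signal minimums, variance trend and replicate block left these differences unchanged. The start regions of C8a and C9, in which the groups did not overlap, are shown because all measured members of their role had a higher mean. Both windows are from RefSeq's GRCm38.p6, C8a at chr4:104876349-104876648 on the minus strand and C9 at chr15:6445096-6445395 on the plus strand. Capitals mark the letters TTCNNNGAA of STAT factors and then GTTAAT, the core bound by HNF1, in C8a, and the letters TTGCNNAA of C/EBP factors in C9, found on either strand. The STAT and C/EBP factors are known to act in the acute phase response, and HNF1 is a hepatocyte factor.
C8a: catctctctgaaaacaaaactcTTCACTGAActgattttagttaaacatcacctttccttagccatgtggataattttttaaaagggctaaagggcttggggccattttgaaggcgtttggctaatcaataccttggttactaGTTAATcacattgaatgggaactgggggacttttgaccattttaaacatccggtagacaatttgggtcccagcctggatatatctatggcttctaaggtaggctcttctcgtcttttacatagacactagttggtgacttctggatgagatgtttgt
C9: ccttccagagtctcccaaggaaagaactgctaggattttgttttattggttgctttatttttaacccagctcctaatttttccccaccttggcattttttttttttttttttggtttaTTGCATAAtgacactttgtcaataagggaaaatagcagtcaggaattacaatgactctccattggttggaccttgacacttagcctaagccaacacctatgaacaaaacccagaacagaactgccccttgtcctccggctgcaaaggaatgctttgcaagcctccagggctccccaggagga

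Letters of this kind were searched on both strands of the start regions at hand, 25 windows of 24 members. GTTAAT stood in 24% of them and in 7.1% of all 32851 windows of that length, TTGCNNAA in 24% against 10.8%, and TTCNNNGAA in 12% against 8.3%. CAAAGTNCA, a form of the HNF4 site, was found in 4% against 1.41%, TATAAA, the TATA box, in 12% against 13.6%, and a form of the kappa B site in 0% against 0.411%. No pair of these matches overlapped in the printed windows. Members that held these letters included both higher and lower ones. GTTAAT stood in C4bp, C8a, C8b and Hc, higher on average in mutants, and in F13b and F2, lower on average. TTGCNNAA stood in C3, C9 and Cpb2, higher on average in mutants, and in F11, Klkb1 and Serpinc1, lower on average. TTCNNNGAA stood in C8a, which was higher, and in Masp2 and Pros1, which were lower. C6 and C8g, also higher, held none of the letters searched. A match is a description of letters and not a shown binding site, and the part of these factors was not tested.

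C9, the component that forms the wall of the pore, read 11.77, 11.77 and 11.76 in mutants, against 11.66, 11.21 and 11.34 in controls. The mutants were nearly identical, and control replicate 1 lay close to them. The difference was 0.36 (SE 0.16, 95% interval -0.01 to 0.74, adjusted p = 0.943 in limma). C8a, which encodes a chain of the C8 protein, read 12.50, 12.35 and 12.36 in mutants, against 12.15, 12.18 and 11.81 in controls, with a difference of 0.36 (SE 0.16). Here too every mutant lay above every control. In 6 of 16 probe sets the groups did not overlap, against 8.45% of all probe sets. These share the mice of the gene mean and are no separate evidence.

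In the other terminal components control replicate 1 stood with the mutants. C6, which joins the growing complex after C5b, read 11.45, 11.54 and 11.55 in mutants, against 11.58, 10.94 and 10.98 in controls. C8b, which encodes another chain of C8, read 12.16, 12.35 and 12.15 in mutants, against 12.37, 11.69 and 11.61 in controls. In both genes control replicate 1 was the highest of all 6 arrays and the remaining controls were the lowest. C8g, for the small lipocalin chain of C8, read 12.11, 12.05 and 12.28 in mutants, against 12.21, 11.90 and 11.79 in controls. Averaged over the 6 terminal components, mutant replicates 1, 2 and 3 lay 0.25, 0.29 and 0.28 above the control mean and control replicates 1, 2 and 3 lay at 0.27, -0.10 and -0.17. On all arrays C6 differed by 0.34 (SE 0.20) and C8b by 0.33 (SE 0.22). With a control left out the difference of C6 was 0.55, 0.23 and 0.25 without control replicates 1, 2 and 3, and that of C8b was 0.57, 0.23 and 0.19. Hc, the mouse gene for complement C5, differed by only 0.07 (SE 0.14).

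**Figure D4:**
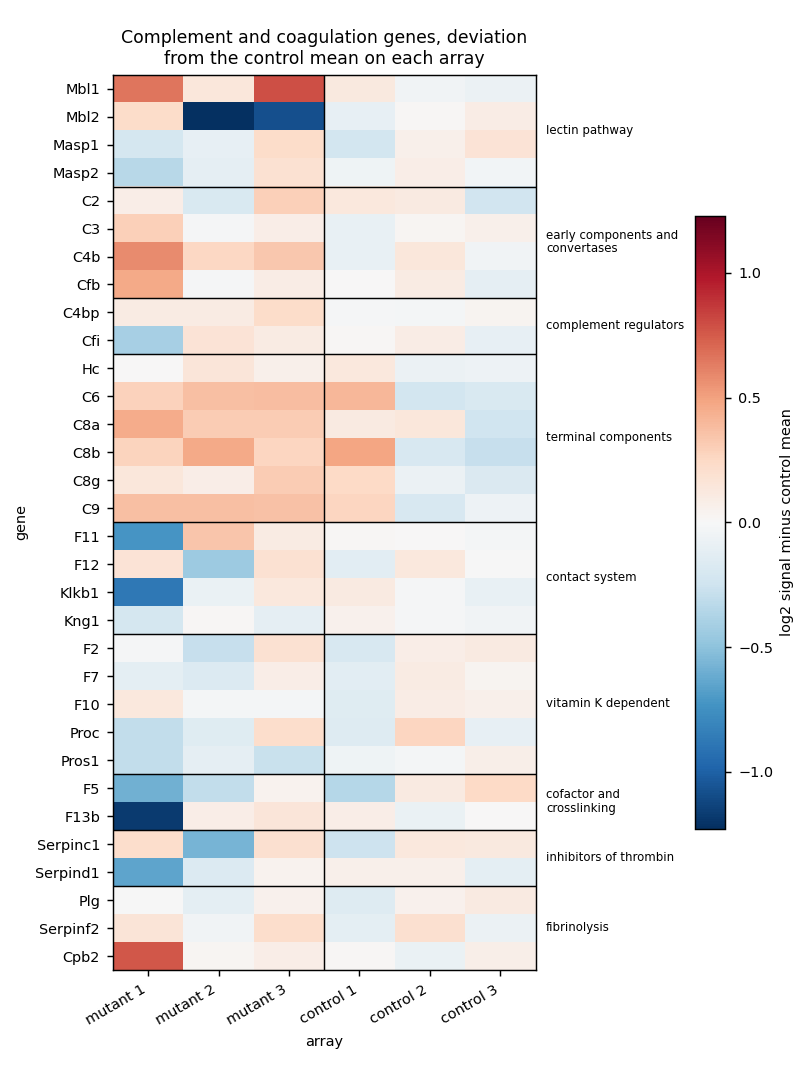
Log2 signal minus the control mean for each measured gene (rows, by role) on each array (columns, mutants left and controls right), red above and blue below the control mean. The terminal components are red in the 3 mutants, apart from Hc in mutant 1, and, apart from C8a, most red among controls in control 1, Mbl2 is blue in mutants 2 and 3, and F13b, Klkb1 and F11 are blue in mutant 1.

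The contact system, which starts clotting on negatively charged surfaces, gave no difference beyond the spread between arrays. All 4 members had a slightly lower mean in mutants with all arrays kept, and the lowest array of Klkb1, F11 and Kng1 was mutant replicate 1. Klkb1, the gene of plasma prekallikrein, read 10.30, 11.09 and 11.31 in mutants, against 11.29, 11.16 and 11.09 in controls. Its difference was -0.28 (SE 0.26) with mutant replicate 1 and 0.02 without it. A further 3 probe sets that name both Klkb1 and Cyp4v3 averaged 11.76, 12.85 and 12.58 in mutants, against 12.95, 12.65 and 12.69 in controls, so they too were lowest in mutant replicate 1. F11, for the factor XI protease, read 8.66, 9.72 and 9.48 in mutants, against 9.39, 9.39 and 9.36 in controls. The controls were almost equal, and the mutants lay on both sides of them, with a difference of 0.22 without mutant replicate 1. Kng1, the kininogen from which bradykinin is released, read 12.10, 12.32 and 12.20 in mutants, against 12.36, 12.29 and 12.27 in controls (difference -0.10, SE 0.14). F12, for factor XII, differed by -0.03 (SE 0.20), ran from -0.23 to 0.17 over the alternatives, the highest without mutant replicate 2, and was below 0 in 10 of 14.

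The vitamin K dependent factors, which need a carboxylated domain to bind membranes, were close to the controls, and protein S differed most among them. Pros1, which encodes protein S, a cofactor that helps activated protein C to inactivate clotting factors, read 9.21, 9.40 and 9.23 in mutants, against 9.46, 9.48 and 9.58 in controls. Every mutant lay below every control, by a small margin in mutant replicate 2. With quantile normalization or median centring the groups overlapped. The difference was -0.23 (SE 0.14, 95% interval -0.55 to 0.10, adjusted p = 0.943 in limma), and 15 of 16 probe sets were lower. F7, whose factor VII binds tissue factor to start clotting, read 8.86, 8.82 and 9.06 in mutants, against 8.85, 9.08 and 9.02 in controls. Its difference of -0.07 (SE 0.15) was within the spread. Prothrombin (F2), factor X (F10) and protein C (Proc) differed by -0.04 (SE 0.18), 0.03 (SE 0.15) and -0.08 (SE 0.19), all with overlapping groups.

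Factor V (F5), the cofactor of factor X, and the carrier subunit of the fibrin-crosslinking factor XIII (F13b) were lowest in mutant replicate 1. F5 read 11.20, 11.49 and 11.83 in mutants, against 11.44, 11.90 and 12.03 in controls, and F13b read 10.23, 11.48 and 11.55 in mutants, against 11.48, 11.32 and 11.41 in controls. F5 overlapped broadly between groups, whereas in F13b a single mutant was low by more than 1 log2 unit and the others lay level with the controls or just above them. The difference of F13b was -0.31 (SE 0.33) on all arrays and 0.11 without mutant replicate 1. That of F5 was -0.28 (SE 0.22), and -0.13 without that array. All 12 probe sets of F13b had a lower mean in mutants, and mutant replicate 1 was the lowest of the 6 arrays in all 12.

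The inhibitors of thrombin were each low in a different mutant. Serpinc1, the gene of antithrombin, read 12.02, 11.24 and 12.004 in mutants, against 11.56, 11.94 and 11.92 in controls, with mutant replicate 2 the lowest. Serpind1, the gene of heparin cofactor II, read 10.89, 11.37 and 11.58 in mutants, against 11.60, 11.60 and 11.41 in controls, with mutant replicate 1 the lowest. The differences were -0.05 (SE 0.24) for Serpinc1 and -0.26 (SE 0.20) for Serpind1, the second being -0.06 without mutant replicate 1.

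In fibrinolysis, Cpb2, for a carboxypeptidase that slows the breakdown of fibrin, was high in a single mutant. It read 12.10, 11.36 and 11.43 in mutants, against 11.36, 11.26 and 11.41 in controls. Its difference was 0.29 (SE 0.21) on all arrays and 0.05 without mutant replicate 1. Serpinf2, for the plasmin inhibitor alpha-2-antiplasmin, read 12.36, 12.16 and 12.41 in mutants, against 12.07, 12.40 and 12.12 in controls (difference 0.11, SE 0.16). Plasminogen (Plg) differed by -0.03 (SE 0.15).

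**Figure D5:**
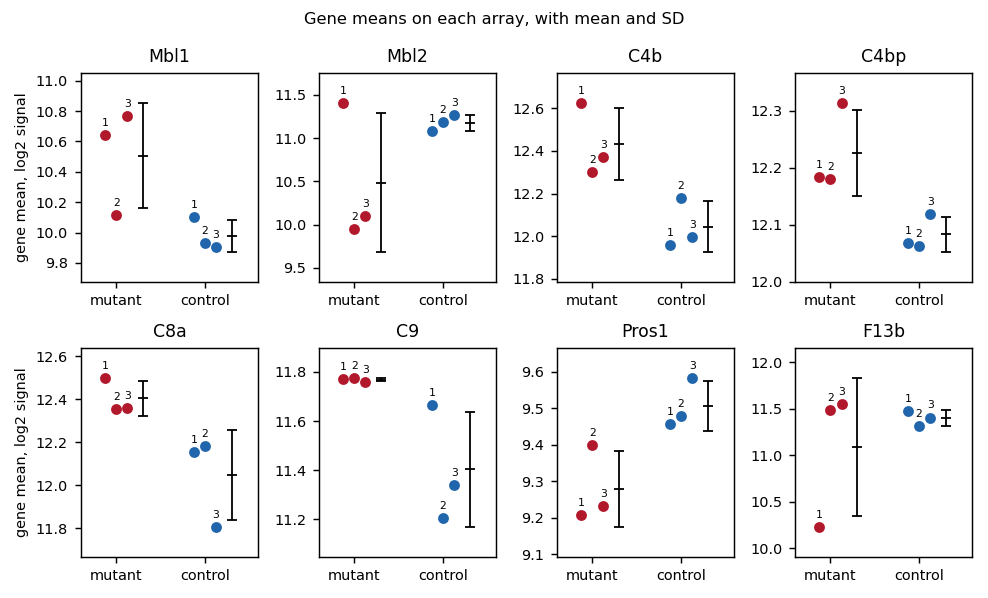
Gene means of log2 signal on each array for the 6 genes whose groups do not overlap and for Mbl2 and F13b, mutants left and controls right, with the replicate number above each point and the mean and SD (n = 3) as a bar. Mbl1, C4b, C4bp, C8a and C9 have all mutants above all controls and Pros1 has all below, while Mbl2 and F13b each hold a mutant far from the other mutants; the y axes differ and do not start at 0.

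Mutant replicate 1 departed most from the controls over the whole list. Of the 32 members 8 lay more than 0.5 log2 units from the control mean on that array, 3 above it and 5 below it. The 3 above were Mbl1, C4b and Cpb2, and the 5 below were F11, Klkb1, F5, F13b and Serpind1. The count was 2 each on mutant replicates 2 and 3 and 0 on any control. Each control is part of the control mean, which draws its deviation toward 0, so control and mutant counts are not on equal terms. The share of all genes beyond 0.5 was not counted, so these counts describe the list only. The SD of the members' deviations was 0.45, 0.32 and 0.28 on mutant replicates 1, 2 and 3, where over all genes it was 0.52, 0.32 and 0.29. The same array had the highest acute phase values, and the part of those genes in the members' deviations was not tested.

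Of 51 other listed genes of the pathways 43 were measured. None passed in limma, 2 reached an unadjusted p under 0.05, both higher, against 4.21% of all genes, and 24 were higher and 19 lower, with a median difference of 0.03. The groups did not overlap in 4 of the 43 (9.3%), close to the 9.47% of all genes. F13a1, for the catalytic subunit of factor XIII, which is made mainly by macrophages and platelets, read 5.84, 4.79 and 4.84 in mutants, against 4.65, 4.34 and 4.31 in controls (difference 0.72, SE 0.28). Serpina10, for an inhibitor of factor X that acts with protein Z, read 12.09, 10.51 and 10.47 in mutants, against 10.45, 9.99 and 10.24 in controls (difference 0.80, SE 0.41). In both genes mutant replicate 1 was far above the rest and the other mutants lay just above the controls, and without it the differences were 0.38 for F13a1 and 0.26 for Serpina10. F3, the gene of tissue factor, was lower, at 5.64, 5.90 and 5.97 in mutants, against 6.17, 6.18 and 6.05 in controls (difference -0.30, SE 0.15). Clu, for a chaperone that also restrains the membrane attack complex, read 12.81, 12.45 and 12.40 in mutants, against 12.37, 12.30 and 12.24 in controls (difference 0.25, SE 0.16, or 0.12 without mutant replicate 1). Cfd, for the factor D protease of the alternative pathway, read 6.24, 6.95 and 7.97 in mutants, against 6.39, 6.06 and 5.97 in controls. Its mutants spread widely and overlapped the controls, and the difference of 0.91 (SE 0.39) was 0.45 without mutant replicate 3 and 1.32 without mutant replicate 1. Itgam, for a chain of complement receptor 3, read 5.86, 5.24 and 5.56 in mutants, against 5.31, 5.13 and 5.25 in controls, and its difference of 0.33 (SE 0.19) was 0.19 without mutant replicate 1. C1s1, for a protease of the C1 complex, differed by -0.28 (SE 0.17) with overlapping groups. Clu was named because its groups did not overlap, after its values were seen.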

How the data were processed

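The labels assign 3 arrays to each group, with replicate numbers within a group. The deposited values are log2 signals per probe set (204531 on each of 6 arrays). Per the submitters' processing notes the tools were Partek 6.4, RMA and Affymetrix Expression Console 1.1, with build mm9. That list of tools gives no roles, and the use of Partek for splicing p-values is described below. RMA, as generally used, brings arrays to a common distribution and compresses differences of dim probe sets. The number of arrays limits the precision, as they have no read depth. Nothing in the labels says how mice were related, and p-values measure only the spread between these samples.

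Gene symbols came from the platform annotation: 185264 probe sets had 1 symbol, 3488 several and 15779 were not listed. Symbols were updated through RefSeq (assembly GRCm38.p6, used for names, chromosomes and start regions), with 13995 current, 2104 replaced through a synonym and 40 unmatched of 16139. A probe set was kept at a group mean of 3 or more. Genes with at least 2 kept probe sets were compared with limma 3.58.1 (lmFit, eBayes) in R 4.3.3, with Benjamini-Hochberg adjustment over all genes and a threshold of 0.05. For exon usage a gene needed 3 kept probe sets or more, and the F-test takes a single variance for all of them. The submitters' own splicing p-values, made in Partek on core probe sets with the same minimum of 3, were not used here. The steps were tested on simulated data.

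Values on every array are given for members whose groups did not overlap, the 2 of smallest p in each role and the 3 with the largest deviation of a single array, and C6, C8b, C8g and F11 were added after their values were seen. Probe sets are named for the 3 members of smallest p for exon usage, and among the other pathway genes the 6 of smallest p. The members, lists and rule were chosen with earlier results of these data known. Alternatives were other signal minimums, quantile normalization, median centring, gene medians, a variance trend, array weights, a replicate block, the Simes test for exon usage and leaving out each array.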

Additional observations from a re-analysis of the deposited data

Results flagged for a closer look

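A set of 29 probe sets that name both C4b and its close copy C4a, and so were left out of the gene means, carried the same kind of signal as the C4b probe sets. Their mean read 12.95, 12.47 and 12.64 in mutants, against 12.12, 12.45 and 12.23 in controls, a difference of 0.42. They were singled out because they lie outside the main measurement and every mutant lay above every control, in mutant replicate 2 only just above control replicate 2. No model was fitted to this mean.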

How the results depend on the processing

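No member and no other pathway gene passed the threshold in any of 14 alternative settings, and the smallest adjusted p of a member was 0.258 (limma, Mbl2 without mutant replicate 1). The count over all genes, 1 on all arrays, was 0 with no signal minimum, 2 with quantile normalization, 2 with median centring, 2 with array weights and 0 to 3 with an array left out. The members' median difference was 0.0172 with median centring and 0.0595 with gene medians, and ran from -0.0806 to 0.0698 with an array left out. Members with a higher mean in mutants, 15 on all arrays, numbered 19 with median centring, 21 with gene medians and 14 to 21 with an array left out. Members whose groups did not overlap numbered 7 to 12 with an array left out, where 14.9% to 27.4% of all genes did so. Exon usage calls among members numbered 0 to 1 with an array left out, Mbl2 and F10 as given above. Some small differences changed sign. That of Cfi was 0.0698 with array weights, and with gene medians those of Kng1 and Serpinc1 were 0.0035 and 0.0881. With an array left out the difference ran from -0.16 to 0.13 in Cfi, -0.48 to 0.0203 in Klkb1, -0.54 to 0.11 in F13b and -0.19 to 0.20 in Serpinc1. The causes were not tested. With the replicate block 0 genes passed. The labels do not say whether the replicate numbers pair the samples. Deviations of same-numbered arrays correlated at 0.10, -0.11 and 0.18, which with 3 arrays per group cannot decide it. No other result on the members moved past a threshold under the block.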

Other observations

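Genes that act on the liver's secreted proteins were measured beside the list. Of 6 listed hepatocyte factors 5 were measured, 3 of them higher and 2 lower. Cebpa, a C/EBP factor, read 9.54, 9.61 and 9.80 in mutants, against 10.37, 9.999 and 10.30 in controls. Its difference was -0.57 (SE 0.16, adjusted p = 0.943 in limma). Another C/EBP factor, Cebpb, went the other way, at 0.49 (SE 0.40). Foxa2 differed by -0.23 (SE 0.15) and Nr1h4 by 0.17 (SE 0.21). The groups did not overlap in Cebpa and Foxa2, 40% of the 5, where 9.47% of all genes did not. Hnf4a, a hepatocyte nuclear receptor, read 11.75, 10.94 and 11.40 in mutants, against 11.25, 11.26 and 11.30 in controls. Mutant replicate 1 was its highest array and mutant replicate 2 its lowest, with a difference of 0.09 (SE 0.21). The enzymes of gamma-carboxylation, on which the vitamin K dependent factors rely, were averaged over 3 genes. Mutant replicates 1, 2 and 3 lay -0.51, 0.00 and 0.17 from the control mean. On mutant replicate 1 the genes were unequal, at -1.03 in Vkorc1l1, -0.40 in Ggcx and -0.12 in Vkorc1. A2m, a protease inhibitor of plasma, read 7.77 in mutant replicate 1, 5.02 in each of the other mutants and 4.88 to 5.13 in controls, and was named after its values were seen.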
